A study of Sus scrofa with 6 samples.

Results

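Glycolysis and the response to low oxygen were followed through 32 genes in pig (Sus scrofa) testis cell cultures with and without retinoic acid. The 32 genes were listed by symbol, 19 of them for the glycolytic enzymes with their regulators and 13 for other genes known to answer to hypoxia. All 32 were found by exact symbol among the 29884 rows of the deposited expression table, and all 32 passed the filter on low values, which asked for 0.5 FPKM or more on average across the 6 libraries. FPKM is a fragment count scaled to gene length and to the reads of the library.

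The 6 libraries came from testis material that the labels call porcine primitive spermatogonia, the early germ cells that give rise to sperm. In the RA group, 3 libraries came from cells given 2 umol/L all-trans-retinoic acid, a vitamin A derivative that drives germ cell differentiation. In the control group, 3 libraries came from cells given 0.1% ethanol instead. The sources used here do not give the animals' age, the time in retinoic acid, the oxygen level or the glucose content of the medium. Nor do they tell if each library had a culture or an animal of its own, and a p-value here therefore reflects library-to-library spread that can be technical.

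Glycolysis splits glucose into pyruvate in the cytosol, and lactate dehydrogenase turns pyruvate into lactate. In the testis, Sertoli cells, the somatic nurse cells of the seminiferous epithelium, are known to make lactate from glucose and pass it to germ cells as fuel. Hypoxia-inducible factor (HIF) is a transcription factor whose alpha subunit is hydroxylated on prolines and destroyed when oxygen is present. When oxygen is low, HIF raises many genes of glucose uptake, glycolysis and blood vessel growth.

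Library totals behind the FPKM values lay between 62084199 and 87520891 reads, as implied by the counts, FPKM and lengths of the 4377 genes with deposited counts. RA replicate 2 had the lowest mean correlation with its own group across genes (0.984, against 0.989 to 0.995 for the other 5 libraries). Marker genes of several cell types were present. The 8 germ cell markers summed to 191 to 197 FPKM in control and 161 to 171 in RA, and 3 of them fell. The 7 Sertoli cell markers summed to 9298 to 9779 FPKM in control and 9589 to 10276 in RA, nearly all of it CLU, with 1 that rose and 4 that fell. All 5 peritubular myoid or smooth muscle markers rose, from sums of 445 to 509 FPKM to sums of 1319 to 1571. Endothelial markers summed to 21.5 to 24.8 and 22.5 to 26.2 FPKM, with 0 called. Macrophage markers summed to 13.6 to 16.9 and 17.6 to 25.1 FPKM, with 1 that rose and 0 that fell. Leydig cell markers summed to 108 to 115 and 163 to 168 FPKM, with 1 that rose and 1 that fell. Nearly all of the Leydig cell sum was CYP11A1, with means of 104 FPKM in control and 159 in RA. Without CLU the other 6 Sertoli cell markers summed to 291 to 326 FPKM in control and 216 to 223 in RA, lower in every RA library. None of these markers was listed at 0 in any library. In such bulk samples, fewer cells of a type and less RNA per cell cannot be told apart, and the part of these markers in the results below was not tested.

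Of the 19 glycolytic genes, HK2, TPI1 and LDHB rose and HK1, PFKM and LDHA fell with RA, while 13 did not pass the test (limma on log2(FPKM + 1), two-sided, Benjamini-Hochberg adjusted over 14567 genes, threshold 0.05). Of the 13 other hypoxia genes, P4HA2, VEGFA and NDRG1 fell and 0 rose. At an unadjusted p under 0.05 in limma, 1 was higher (CA9), and EGLN1 and PDK4 were lower besides those called. For these 13 genes edgeR and DESeq2 also called 0 higher, with 3 and 4 lower. The members called were 9 of 32 (28.1%), close to the 25.9% called among all genes tested, where 13.9% were called higher and 12.0% lower. The share called is thus near the background, and the description below is of which genes moved and by how much. Median log2 changes were 0.014 for the glycolytic genes and -0.198 for the other hypoxia genes, beside -0.014 over all genes tested. Without RA replicate 2 these medians were -0.019, -0.171 and -0.014.

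Libraries of the groups did not overlap in 17 of the 32 members (53.1%, against 48.0% of all genes tested), 6 with RA higher and 11 with RA lower, where all genes tested gave 23.9% and 24.0%. The authors' deposited table lists 11 of the 32 members, 4 higher and 7 lower, and 14.6% of all 29884 rows. That base includes rows below the filter on low values, which all 32 members passed. The share of members listed therefore cannot be set against the 14.6% directly. Under some other settings the split of calls among the glycolytic genes moved towards falls. It was 3 higher and 8 lower after quantile normalization, and 4 higher and 7 lower after a correction of each library for gene length. Without RA replicate 2 it was 3 higher and 6 lower. Over all 14567 genes tested, the main fit called 2019 higher and 1750 lower. Those counts were 2188 and 1774 after quantile normalization, 2158 and 1867 after the length correction, and 2258 and 2256 without RA replicate 2. Among the other hypoxia genes, 0 were higher and 3 or 4 were lower under every alternative run.

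**Figure D1:**
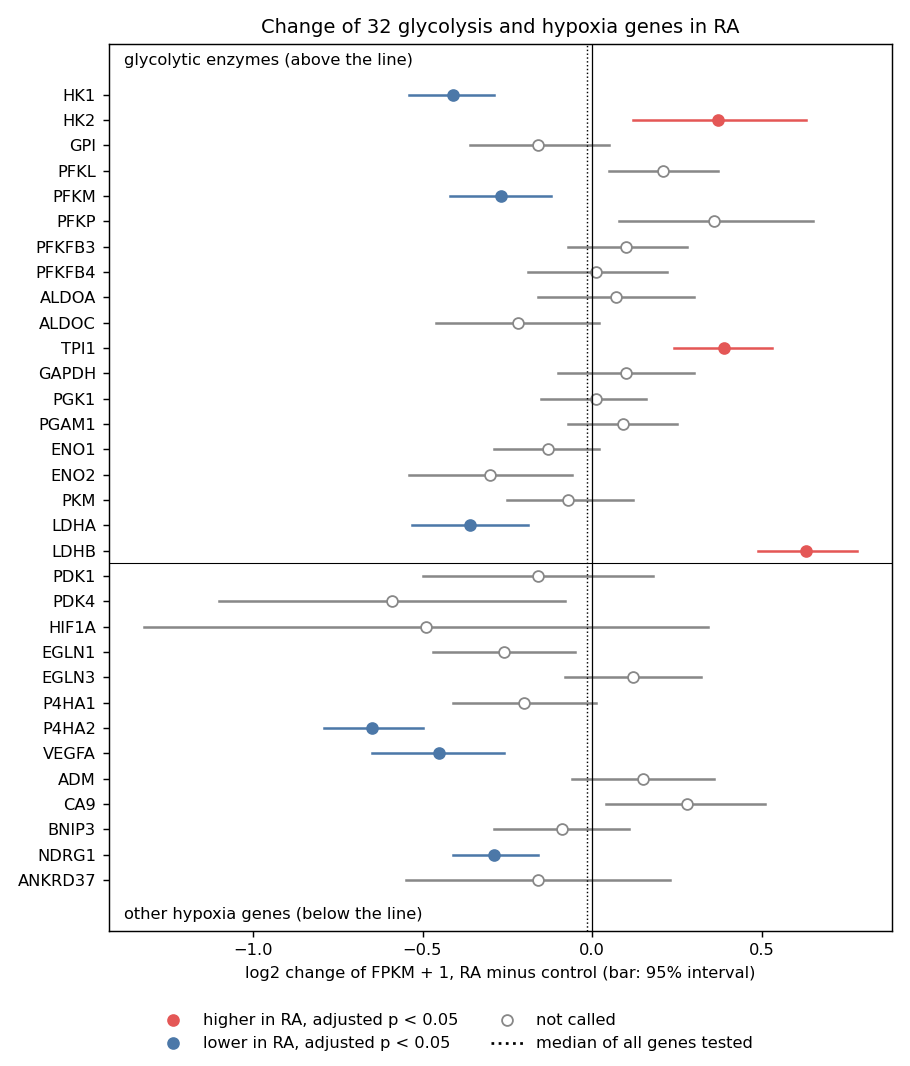
Log2 change of FPKM + 1, RA minus control, for the 32 members in the order of the pathway, with limma's 95% intervals from 3 libraries per group. Filled points passed the test: HK2, TPI1 and LDHB to the right of 0, and HK1, PFKM, LDHA, P4HA2, VEGFA and NDRG1 to the left, with HIF1A showing the widest interval (-1.32 to 0.34).

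Hexokinase, which traps glucose in the cell as glucose 6-phosphate, moved in opposite directions at its 2 genes. HK1, the isoform found in most tissues, was at 246, 243 and 239.8 FPKM in control replicates 1, 2 and 3 and at 179.7, 183 and 184 in RA replicates 1, 2 and 3. Its groups lay well apart, with SDs of 2.87 and 2.06 around means of 243 and 182. The fall of 25.0% corresponded to -0.41 ± 0.053 on the log2 scale (SE, n = 3 libraries per group, limma adjusted p = 0.00139), and it was called in 14 of 14 alternatives.

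HK2, the isoform that HIF and insulin raise in many cells, was at 7.44, 9.21 and 8.46 FPKM in control and 11.1, 9.91 and 12.5 in RA. Every RA library was above every control library, but the gap between the highest control and the lowest RA value was small. HK2 rose by 0.37 ± 0.110 on the log2 scale (SE, limma adjusted p = 0.0414). The call was lost without control replicates 1, 2 or 3 (adjusted p = 0.127, 0.0633 and 0.107), without RA replicates 1 or 3 (0.0975 and 0.0967) and with no filter on low values (0.081).

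Since HK1 was the more abundant of the pair per length, the sum of both genes went down with it, from 251 ± 2.49 to 193 ± 2.64 summed FPKM (SD, n = 3). HK1 made up 97.1%, 96.3% and 96.6% of that sum in control and 94.2%, 94.9% and 93.6% in RA. The groups did not overlap, a difference of -2.44 percentage points (exact permutation test, two-sided, p = 0.100, the smallest that 3 against 3 libraries can give).

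Phosphofructokinase sets the pace of glycolysis at its committed step and is built from liver (PFKL), muscle (PFKM) and platelet (PFKP) type subunits. PFKM was at 30.7, 33.1 and 30.8 FPKM in control and at 25.6, 27.1 and 25.3 in RA. It fell by 17.5%, which was -0.27 ± 0.064 on the log2 scale (SE, limma adjusted p = 0.0196). Without control replicates 2 or 3 the adjusted p was 0.0853 and 0.056, and without RA replicates 1 or 3 it was 0.0696 and 0.0527.

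PFKL was at 31.5, 31.1 and 34.8 FPKM in control and 36.9, 39.7 and 36.4 in RA, and PFKP at 9.52, 8.61 and 7.50 and then 10.4, 13.2 and 10.2. In both genes the RA libraries lay above the control libraries, but neither passed (log2 changes 0.21 and 0.36, limma adjusted p = 0.0633 and 0.0659). PFKP is nevertheless listed with a log2 fold change of 0.43 and an FDR of 0.041 in the authors' deposited table. The summed FPKM of the 3 subunit genes was 72.6 ± 0.712 in control and 75.0 ± 4.42 in RA (SD, n = 3).

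Within that sum, PFKM made up 42.8%, 45.5% and 42.1% in control and 35.1%, 33.9% and 35.2% in RA, a difference of -8.76 percentage points. PFKL made up 44.0%, 42.7% and 47.6% and then 50.6%, 49.6% and 50.6%, and PFKP 13.3%, 11.8% and 10.3% and then 14.3%, 16.5% and 14.2%. The groups did not overlap for any of the 3 shares (exact permutation p = 0.100 each). PFKM and PFKL thus held similar shares in control, and PFKL the larger one in RA.

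PFKFB3 and PFKFB4 make and break fructose 2,6-bisphosphate, the strongest activator of phosphofructokinase, and both are known HIF targets. PFKFB3 had 19.4 ± 0.605 FPKM in the control group and 21.0 ± 1.52 in the RA group (limma adjusted p = 0.325), and PFKFB4 at 6.83 ± 0.535 and 6.90 ± 0.176 (0.918). Their 95% intervals for the log2 change ran from -0.07 to 0.28 and from -0.19 to 0.22.

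**Figure D2:**
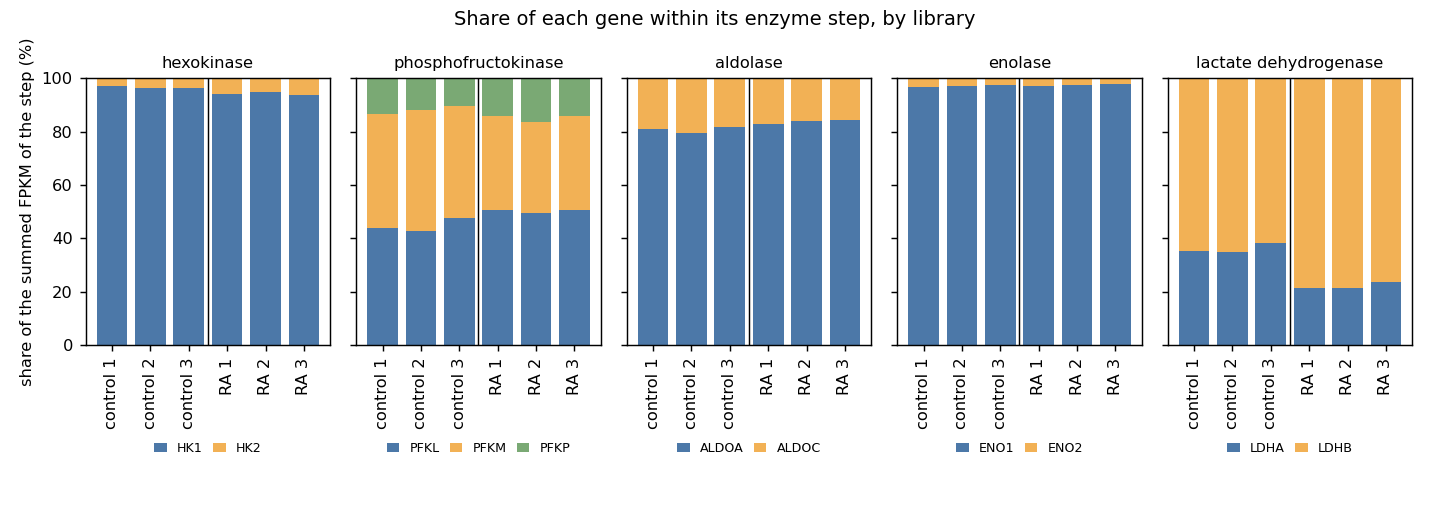
Share of each gene in the summed FPKM of its enzyme step, in percent, for each control and RA library (the vertical line parts the groups). LDHA takes 34.9% to 38.2% of the lactate dehydrogenase sum in control and 21.2% to 23.6% in RA, while ENO1 stays between 96.8% and 97.8% of the enolase sum.

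GPI, which converts glucose 6-phosphate to fructose 6-phosphate, was at 202, 190.0 and 188 FPKM in control and 167, 196 and 159 in RA. RA replicate 2 lay among the control libraries and the other RA libraries lay below them, and GPI did not pass (log2 change -0.16, limma adjusted p = 0.213). Without RA replicate 2 the log2 change was -0.25 and the adjusted p 0.0137.

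Of the aldolases, which cut fructose 1,6-bisphosphate into triose phosphates, ALDOA was at 343, 301 and 296 FPKM in the controls and 312, 373 and 305 with RA (limma adjusted p = 0.613). ALDOC, the brain-type isoform, was at 80.6, 77.9 and 66.0 and then 63.8, 71.6 and 57.1 (log2 change -0.22, limma adjusted p = 0.158, and 0.0316 without RA replicate 2). The groups overlapped for both genes. The ALDOA share of their sum, by contrast, was 79.4% to 81.8% in control and 83.0% to 84.2% in RA, with no overlap (exact permutation p = 0.100).

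TPI1, the isomerase that interconverts the 2 triose phosphates, rose. It was at 241, 229 and 246 FPKM in control and 304, 327 and 306 in RA, with all RA libraries above all control libraries. The rise was 30.8%, which was 0.39 ± 0.063 on the log2 scale (SE, limma adjusted p = 0.00395), and it was called in 14 of 14 alternatives, with log2 changes from 0.26 to 0.41. The deposited table places TPI1 at bases 63839473 to 63842853 of chromosome 5. On the same chromosome ENO2 lies 30.4 kb and GAPDH 287 kb from it, and neither passed the test.

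The enzymes of the payoff phase, which earn ATP and NADH, gave no call at GAPDH, PGK1, PGAM1, ENO1, ENO2 or PKM. GAPDH, often used as a reference gene, was at 367, 332 and 326 FPKM in control and 344, 404 and 353 in RA. This was a log2 change of 0.10 with a 95% interval from -0.10 to 0.30. The FPKM level of GAPDH rests on a listed length of 4717 bases in a span of 5517. PGK1 was at 137 ± 7.68 and 138 ± 5.66 FPKM (95% interval of the log2 change -0.15 to 0.16) and PGAM1 at 207 ± 10.8 and 220.2 ± 11.1 (-0.07 to 0.25). After quantile normalization the log2 changes of GAPDH and PGK1, and that of ALDOA, were below 0, while that of PGAM1 was 0.02.

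ENO1, the main enolase, was the most abundant member per listed length, at 802, 805 and 845 FPKM in control and 727, 777 and 731 in RA. In reads per library ENO1 had 86272 to 118278, GAPDH 95340 to 142151 and PKM 162852 to 239182. The ENO1 groups did not overlap in FPKM, yet ENO1 did not pass (log2 change -0.13, limma adjusted p = 0.180). Quantile normalization gave it an adjusted p of 0.00339 and the length correction 0.0171. ENO2, the neuronal isoform, was at 26.2, 23.3 and 21.6 and then 20.1, 20.3 and 16.7 FPKM (log2 change -0.30, limma adjusted p = 0.0652, and 0.0241 without RA replicate 2). ENO1 held 97.2% ± 0.335 of the enolase sum in control and 97.5% ± 0.230 in RA (exact permutation p = 0.30).

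PKM, pyruvate kinase, was at 669, 579.5 and 627 FPKM in control and 597, 623 and 569 in RA (log2 change -0.07, limma adjusted p = 0.556). The row spans chromosome 7, 60971807 to 61032780, and its best human match in the deposited table is PARP6, which has no row of its own there. Reads of PARP6 may therefore be counted in this row, which was not tested. After quantile normalization the adjusted p was 0.0138, with a log2 change of -0.23.

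Lactate dehydrogenase showed the widest shift between isoforms. The A subunit favours making lactate from pyruvate and is a textbook HIF target, whereas the B subunit favours the reverse. LDHA was at 89.0, 87.0 and 98.0 FPKM in control and at 66.0, 72.0 and 74.9 in RA, with every RA library below every control library. It fell by 22.3%, which was -0.36 ± 0.074 on the log2 scale (SE, limma adjusted p = 0.0107).

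LDHB was at 163, 162 and 159 FPKM in control and at 245, 267 and 242 in RA. The groups lay far apart, with means of 162 ± 2.39 and 251 ± 14.0 FPKM (SD, n = 3). LDHB rose by 55.6%, which was 0.63 ± 0.062 on the log2 scale (SE, limma adjusted p = 0.000381), which made it the member with the largest rise. Both LDHA and LDHB were called in 14 of 14 alternatives.

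LDHA thereby made up 35.3%, 34.9% and 38.2% of the lactate dehydrogenase sum in control and 21.3%, 21.2% and 23.6% in RA, a difference of -14.1 percentage points (exact permutation p = 0.100). The sum itself was 253 ± 3.80 FPKM in control and 322 ± 15.2 in RA (SD, n = 3). Of the 7 isoform shares computed over the 5 steps, 6 did not overlap between groups, each with a Benjamini-Hochberg adjusted p of 0.117. The 3 phosphofructokinase shares among them add up to the whole, so they are not separate results. Single-gene levels did not overlap in 48.0% of all genes tested, and no such background was computed for shares. With 3 against 3 libraries this exact test cannot reach the threshold.

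The LDHB row carries an uncertainty of its own. The table places it on chromosome 2, 12988754 to 12990033, with a listed length of 1280 bases that equals this span. The RefSeq gene table of the Duroc pig assembly Sscrofa11.1 holds 2 records named LDHB, and LDHB was the 1 member with more than 1 record. They lie at this place on chromosome 2 and on chromosome 5, where the record spans 20287 bases. Deposited counts and FPKM of LDHB imply a length of 1370 bases in each library, which is longer than the whole listed span of 1280. A pseudogene row that overlaps the listed place on chromosome 2, LOC407246, was listed at 0 in all 6 libraries. Whether the reads came from one locus or from both was not tested.

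**Figure D3:**
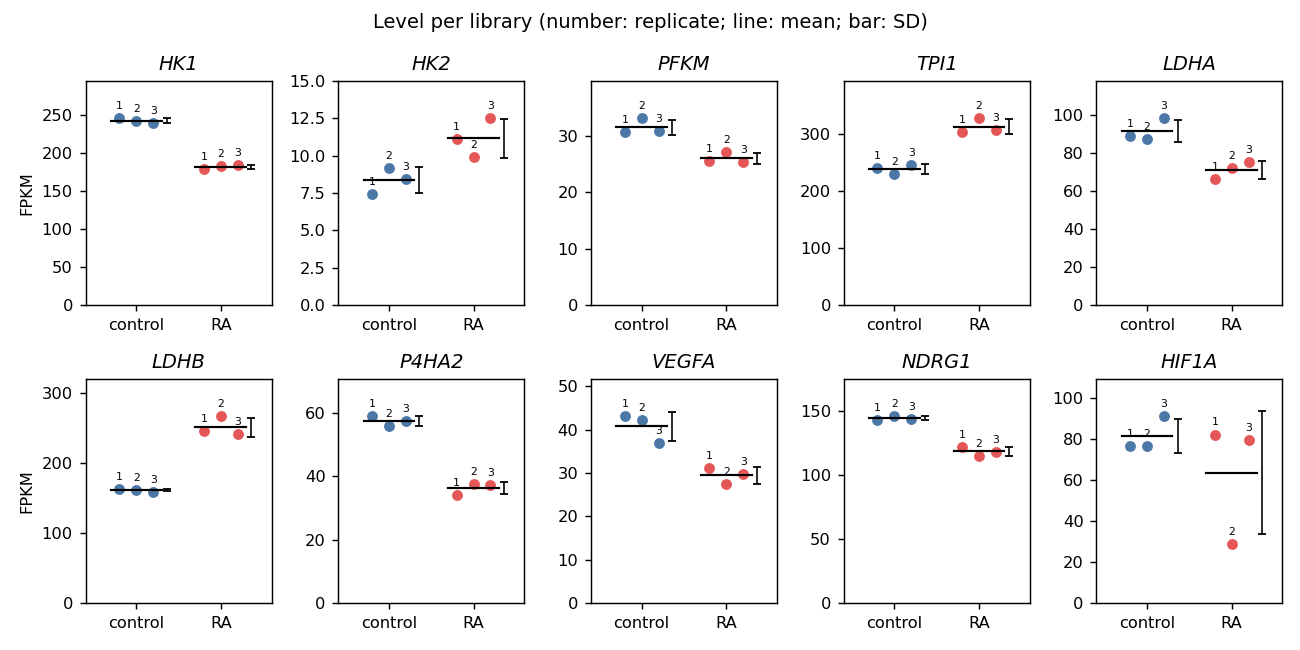
FPKM per library, on axes that start at 0, for the 9 members that passed the test and for HIF1A, with the replicate number at each point, the group mean as a line and the SD as a bar. HK1, PFKM, LDHA, P4HA2, VEGFA and NDRG1 are lower and HK2, TPI1 and LDHB higher in every RA library, and the HIF1A value of RA replicate 2 (28.9) stands away from the other 5 libraries (76.8 to 91.3).

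Summed over the 19 glycolytic genes, the level was 3676, 3468 and 3582 FPKM in control and 3497, 3805 and 3451 in RA. The ranges overlapped, and the means of 3575 and 3584 differed by less than either SD (104 and 193). ENO1, PKM, GAPDH and ALDOA are the 4 most abundant members per listed length and weigh most in this sum.

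Germ cells switch to isoforms of their own later in development, and these were scarce. LDHC, the testis-specific lactate dehydrogenase, had 2.26 ± 0.327 FPKM in the controls and 2.20 ± 0.330 with RA. GAPDHS, the sperm form of GAPDH, was at 0.573 ± 0.131 and 0.765 ± 0.0281, and PGK2, the late germ cell form of phosphoglycerate kinase, at 0.396 ± 0.147 and 0.418 ± 0.0724 (SD, n = 3). LDHC and GAPDHS did not pass the test, and PGK2 was below the filter.

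Pyruvate dehydrogenase kinases hold pyruvate back from the mitochondria, PDK1 as a HIF target and PDK4 as a gene of fasting. PDK1 was at 3.86, 4.22 and 4.09 FPKM in the controls and 3.92, 2.60 and 4.19 with RA (limma adjusted p = 0.432), the lowest value being that of RA replicate 2. PDK4 was at 3.29, 5.21 and 2.85 and then 2.76, 1.41 and 2.33. Its RA libraries lay below its control libraries, but control replicate 2 was far above the other controls, and PDK4 did not pass (log2 change -0.59 ± 0.221 SE, limma adjusted p = 0.0874). Without control replicate 2 its log2 change was -0.39 (adjusted p = 0.249). On whole reads edgeR gave an adjusted p of 0.0976 and DESeq2 0.0317, and the authors' deposited table lists it with a log2 fold change of -0.77 and an FDR of 0.0349.

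HIF1A, which encodes the oxygen-regulated alpha subunit of HIF, was at 76.9, 76.8 and 91.3 FPKM in control and at 82.3, 28.9 and 79.8 in RA. RA replicate 2 alone was low, at 0.357 times the mean of the other RA libraries, while those lay among the controls. The fit gave -0.49 ± 0.359 on the log2 scale (SE, limma adjusted p = 0.336), and without RA replicate 2 it gave -0.01 ± 0.081 with a 95% interval from -0.19 to 0.18. On the log2(FPKM + 1) scale, RA replicate 2 lay 1.46 below the mean of RA replicates 1 and 3 (a departure of -1.46). Of 14567 genes, 11 including HIF1A had a departure that low or lower, while the median over all genes was 0.031. The value rests on 6053 reads, so counting error is small beside it.

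The enzymes that mark HIF for destruction were measured with 2 members. EGLN1, the main oxygen sensor of the family, was at 14.9, 15.6 and 13.6 FPKM in control and 13.1, 10.9 and 12.5 in RA, without overlap, but did not pass (log2 change -0.26, limma adjusted p = 0.0749). EGLN3, an inducible relative, was at 12.5, 11.4 and 12.4 and then 14.6, 12.6 and 12.5 (0.12, limma adjusted p = 0.336).

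P4HA2, a catalytic subunit of collagen prolyl hydroxylase, which stabilises the collagen triple helix and is raised by hypoxia, fell with RA. It was at 59.1, 55.9 and 57.5 FPKM in control and at 34.2, 37.5 and 37.3 in RA. The groups were far apart, and P4HA2 fell by 36.8%, which was -0.65 ± 0.063 on the log2 scale (SE, limma adjusted p = 0.000353), called in 14 of 14 alternatives. P4HA1, the more widely expressed subunit, was at 30.6, 31.0 and 34.1 and then 28.3, 24.6 and 30.2 FPKM and did not pass (log2 change -0.20, limma adjusted p = 0.138).

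P4HA2 shares its locus with PDLIM4 on the other strand, which was at 18.1 to 21.0 FPKM in control and 17.8 to 21.4 in RA. No source used here gives the strand setting of the counting, so reads of overlapping genes on opposite strands may be mixed. A row on the opposite strand overlapped 12 of the 32 members, and it had a mean of at least 2 FPKM for 3 of them, namely P4HA2, GAPDH and ANKRD37.

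Among the secreted factors, VEGFA, the growth factor that drives blood vessel growth, was at 43.1, 42.2 and 36.9 FPKM in control and 31.2, 27.4 and 29.7 in RA. All RA libraries lay below all controls, and VEGFA fell by 27.7%, which was -0.45 ± 0.082 on the log2 scale (SE, limma adjusted p = 0.00611), called in 14 of 14 alternatives. ADM, the vessel-widening peptide adrenomedullin, was at 79.9, 68.4 and 70.4 and then 90.2, 77.3 and 75.4 FPKM (log2 change 0.15, limma adjusted p = 0.258). These HIF targets thus lay on different sides of 0, and ADM did not pass.

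NDRG1, a gene of stress and differentiation that hypoxia raises in many cell types, had tight groups. It was at 143, 146 and 144 FPKM in control and 122, 115 and 118 in RA, a fall of 18.1% (log2 change -0.29 ± 0.055 SE, limma adjusted p = 0.00755, called in 14 of 14 alternatives). BNIP3, which takes part in the removal of mitochondria, was at 45.0, 42.1 and 41.0 and then 38.5, 44.9 and 37.1 FPKM (log2 change -0.09, limma adjusted p = 0.448). After the correction for gene length its adjusted p was 0.0472.

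CA9, a surface carbonic anhydrase and one of the most oxygen-sensitive HIF targets, was low. It was at 1.90, 1.91 and 2.39 FPKM in control and 2.60, 2.85 and 2.66 in RA, from 322 to 507 reads per library. Its RA libraries lay above its controls, but it did not pass (log2 change 0.28, limma adjusted p = 0.0845). ANKRD37, a small ankyrin-repeat HIF target, was the least abundant member, at 0.832, 1.75 and 1.66 and then 1.16, 1.31 and 0.912 FPKM, with overlapping groups (limma adjusted p = 0.494).

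**Figure D4:**
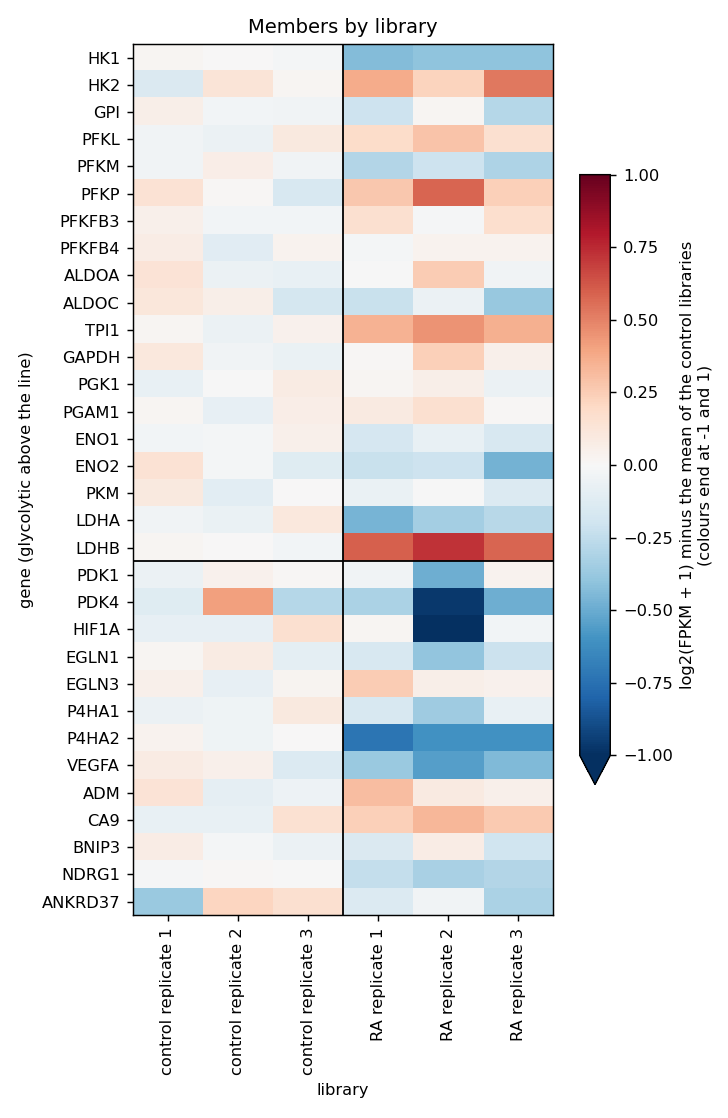
Each member in each library as log2(FPKM + 1) minus the mean of the 3 control libraries, red above and blue below, with the glycolytic genes above the horizontal line. HK1, LDHA, P4HA2, VEGFA and NDRG1 are blue and TPI1 and LDHB red in all 3 RA libraries, and HIF1A and PDK4 are darkest in RA replicate 2.

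Gene length moved with the change in RA across the whole table. Over the 14567 genes tested, Spearman's rho between length and log2 change was -0.32, and -0.20 without RA replicate 2. Over the 32 members it was -0.24, and -0.16 without RA replicate 2. These are descriptions across genes that share the same 6 libraries. TPI1 and LDHB, both called higher, are the shortest members by listed length, at 1157 and 1280 bases. After the length correction TPI1, LDHB and HK2 were still called higher and PFKL was too (adjusted p = 0.0457), and GPI, ALDOC, ENO1 and ENO2 were called lower besides HK1, PFKM and LDHA.

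**Figure D5:**
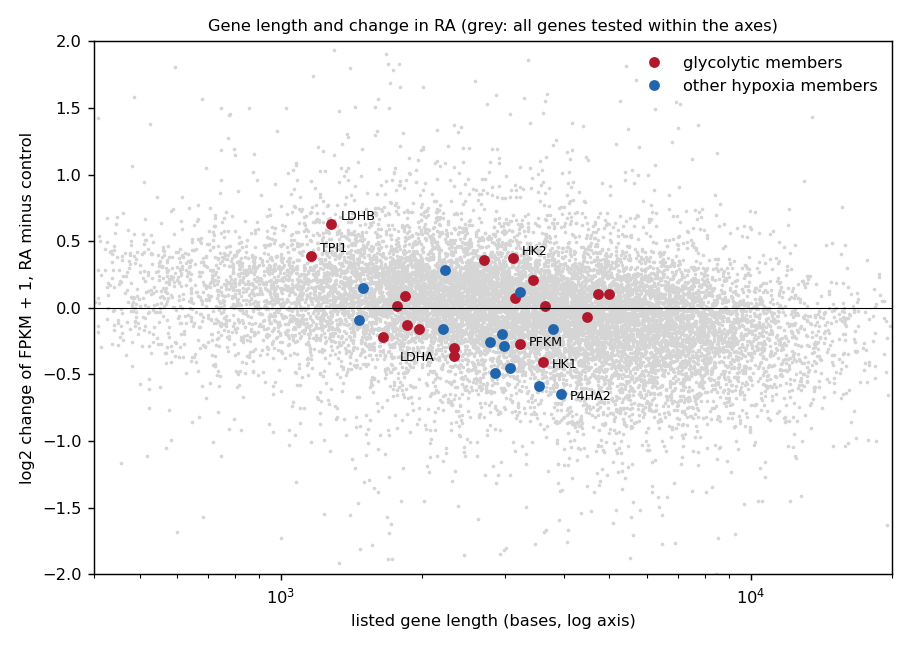
Listed gene length in bases (log axis) against the log2 change of FPKM + 1, RA minus control, for the 32 members and, in grey, for the genes tested that fall within the axes. TPI1 and LDHB lie at the short end with positive changes, while HK2 and HK1, at 3117 and 3609 bases, lie on opposite sides of 0.

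Other genes of the same pathways were counted from 8 lists of non-members. Some genes stand in several lists and are counted in each, so the lists are not separate results. Of 103 distinct genes tested from these lists, 16 rose and 20 fell (15.5% and 19.4%, against 13.9% and 12.0% of all genes tested). Their median log2 change was -0.024. The count of rises was 10, 8 and 10 without control replicates 1, 2 and 3.

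Glucose enters cells through facilitative transporters, and both main ones fell. SLC2A1 (GLUT1), a ubiquitous transporter and HIF target, was at 54.9, 52.9 and 52.6 FPKM in control and 34.5, 34.1 and 34.7 in RA (log2 change -0.62 ± 0.055 SE, limma adjusted p = 0.000226). SLC2A3 (GLUT3), a high-affinity transporter, was at 133, 136 and 135 and then 92.9, 90.2 and 95.1 (log2 change -0.53, limma adjusted p = 0.000426). The groups of both genes were far apart.

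Of the 10 transport genes tested, 3 fell and 1 rose (40.0% called, against 25.9% of all genes tested). EMB, an ancillary protein of lactate transporters, fell from 1.76 ± 0.248 to 0.939 ± 0.251 FPKM (adjusted p in limma 0.0213, 0.0514 to 0.0849 without control replicates 2 or 3 or RA replicate 1, and 0.0625 with no filter). SLC2A8, an intracellular glucose transporter, rose from 5.14 ± 0.425 to 6.57 ± 0.186 (limma adjusted p = 0.0412). Its call was lost without each library but RA replicate 2, with adjusted p-values from 0.0644 to 0.144, and also in edgeR (0.0584), after the length correction (0.0849) and with no filter (0.0589).

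Among 15 tested enzymes of other glycolytic steps and branches, PGAM5 rose and BPGM, LDHD and ENO3 fell (26.7% called, near the 25.9%). BPGM, which makes 2,3-bisphosphoglycerate, fell from 18.1 ± 0.279 to 13.4 ± 0.585 FPKM (adjusted p in limma 0.00397), and LDHD, a D-lactate dehydrogenase, from 5.83 ± 0.204 to 3.63 ± 0.333 (0.00413). PGAM5, a mitochondrial phosphatase in spite of its name, rose from 25.9 ± 1.03 to 36.5 ± 4.46 (0.0078). ENO3, the muscle enolase, fell from 14.9 ± 1.41 to 10.8 ± 2.15 (limma adjusted p = 0.0487), a call lost without each library but RA replicate 2 (0.0877 to 0.146). The ENO3 call was also lost with a pseudocount of 0.1 (0.0522), no filter (0.105), median-ratio scaling (0.0510), quantile normalization (0.0552) and edgeR (0.0672).

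For the entry of pyruvate into mitochondria, 3 of 12 genes fell (25.0% called, near the 25.9% of all genes tested). PDP1, the phosphatase that switches pyruvate dehydrogenase on, fell from 7.28 ± 0.188 to 3.93 ± 0.766 FPKM (limma adjusted p = 0.0042). PDPR, a regulator of that phosphatase, fell from 14.8 ± 0.726 to 11.6 ± 0.0995 (0.0135), with 0.0515 to 0.0648 without control replicate 2 or RA replicate 1. The kinase PDK3 fell from 5.79 ± 0.480 to 3.92 ± 0.596 (0.0241), with 0.0522 to 0.0940 without control replicates 2 or 3 or RA replicate 1. The list thus held falls of both a kinase and a phosphatase. After the length correction PDPR and PDK3 did not pass (0.195 and 0.0613), nor did PDK3 with no filter (0.0519).

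In the pentose phosphate pathway, the branch that makes NADPH and ribose, 2 of 8 genes rose (25.0% called, again near the 25.9%). PGLS, the lactonase, rose from 26.5 ± 2.74 to 38.5 ± 6.86 FPKM (adjusted p in limma 0.0237, 0.0848 to 0.0897 without control replicates 2 or 3, and 0.062 with no filter). H6PD, the enzyme of the endoplasmic reticulum that starts the same branch there, rose from 10.1 ± 0.805 to 12.8 ± 0.491 (0.0273). Its adjusted p was 0.0706 to 0.0912 without control replicates 1 or 2 or RA replicates 1 or 3.

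Glycogen genes moved in both directions, with 3 of 10 higher and 2 lower (5 of 10 called, against 25.9% of all genes tested). GYS1, the muscle-type glycogen synthase, rose from 36.3 ± 2.27 to 63.8 ± 3.04 FPKM (0.80 on the log2 scale, limma adjusted p = 0.000222), and GYG1, glycogenin, the primer of glycogen, fell from 38.0 ± 0.652 to 24.9 ± 1.55 (-0.59, 0.000727). Of the phosphorylases that break glycogen down, muscle-type PYGM rose from 1.19 to 1.52 FPKM in the controls to 3.46 to 4.78 with RA (1.06, 0.000901) and liver-type PYGL fell from 63.8 ± 1.24 to 51.9 ± 0.760 (-0.29, 0.00632). These 4 calls held in each of the 14 alternatives run. The third rise, named after its values were seen, was that of UGP2, which makes the UDP-glucose for glycogen, from 17.1 ± 0.829 to 20.8 ± 1.75 (adjusted p in limma 0.0497, and 0.0921 to 0.146 without each library but RA replicate 2). The UGP2 call was also lost with a pseudocount of 0.1 (0.0519), no filter (0.0823), median-ratio scaling (0.0526), the length correction (0.0754), edgeR (0.0683) and DESeq2 (0.0502).

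Regulators of HIF were 11 tested genes, of which 2 rose and 1 fell (27.3% called, near the 25.9%). CITED2, which competes with HIF for its coactivators, was at 82.6, 71.7 and 74.6 FPKM in control and 45.4, 46.1 and 44.1 in RA (log2 change -0.74 ± 0.069 SE, limma adjusted p = 0.000292). ELOC, a subunit of the ubiquitin ligase that binds hydroxylated HIF, rose from 11.2 ± 0.592 to 14.2 ± 1.08 (0.0265, and 0.0533 to 0.0905 without control replicates 1, 2 or 3 or RA replicate 3). ARNT, the partner subunit of HIF, rose from 15.5 ± 0.276 to 18.1 ± 0.370 (0.043). That call was lost without each library but RA replicate 2, with adjusted p-values from 0.0976 to 0.124.

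Of 37 tested hypoxia targets outside the member list, 7 rose and 9 fell, with a median log2 change of -0.147. That is 18.9% higher and 24.3% lower, beside 13.9% and 12.0% of all genes tested. The falls of SLC2A1 and SLC2A3, already counted with the transport genes, are among these 9. LOXL2, a matrix crosslinking oxidase, was at 17.3, 15.0 and 14.9 FPKM in control and 44.1, 45.5 and 45.4 in RA (log2 change 1.46 ± 0.074 SE, limma adjusted p = 2.13e-05). DDIT4, an inhibitor of the growth kinase mTORC1, rose from 34.1 ± 2.68 to 80.3 ± 1.80 (1.22, 3.65e-05), and ANGPTL4, which inhibits lipoprotein lipase, from 13.3 ± 0.236 to 34.4 ± 3.11 (1.31, 3.86e-05). VLDLR, a lipoprotein receptor, fell from 60.4 ± 1.05 to 29.4 ± 1.37 (-1.01, 3.86e-05). Genes that hypoxia raises in many cell types thus moved both ways, and these 4 calls held in each of the 14 alternatives run.

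Among the collagen hydroxylases, P3H2, a collagen prolyl 3-hydroxylase, was at 31.9, 29.7 and 31.2 FPKM in control and 6.14, 6.22 and 6.82 in RA. The log2 change of -2.11 ± 0.072 (SE, limma adjusted p = 3.32e-06) was larger than that of any member. The other 6 tested genes of that list did not pass, so 1 of 7 fell (14.3% called, below the 25.9%).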

How the data were processed

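The authors deposited FPKM values for 29884 genes, with a length and coordinates, per the file headers. For the 4377 genes they called, they also deposited whole-number counts, a log2 fold change, an FDR and a p-value, as the file headers name them in the deposited table. The sources used here name no aligner, counter, strand setting or build, and no sequence was used. All 32 members had a RefSeq (Sscrofa11.1) record with the coordinates of the deposited table.

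FPKM is not a count, so the test was limma 3.58.1 (R 4.3.3) with a variance trend on log2(FPKM + 1), a pseudocount of 1, group as the only term and Benjamini-Hochberg adjustment over the 14567 genes that averaged 0.5 FPKM or more. This scale understates the change of low genes. Isoform shares were tested by exact permutation. The read total of each library was not given. It was taken as the median of the totals that count, FPKM and length imply, over the genes with deposited counts. Multiplying FPKM by length and this read total returned whole numbers (tolerance 0.05) for 99.8% to 99.9% of the non-zero values. On these reads, with deposited counts for 12 rows that were not whole and 30 rows left out, edgeR 4.0.16 and DESeq2 1.42.0 were run as alternatives. The others were a pseudocount of 0.1, no filter, median-ratio scaling, quantile normalization, a lowess correction for log2 length (span 0.3), the replicate number as a block and each library left out. Simulated data with known changes, each larger than that of any member, were used to check the limma step. This check does not show how the step performs on changes as small as those of the members.

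The members, the further lists and the tests were chosen with earlier results of these data known. All members are named, with up to 4 called genes of smallest p per further list. LEPREL1, an older symbol of P3H2, was the 1 list gene not found.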

Additional observations from a re-analysis of the deposited data

How the results depend on the processing

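Of the 9 called members, HK1, TPI1, LDHA, LDHB, P4HA2, VEGFA and NDRG1 were called in the same direction in each of the 14 alternatives. HK2 and PFKM lost their calls in some, so that 115 of 126 repeats kept both direction and call and 11 lost the call. Among the 23 members not called, 17 of 322 repeats passed the threshold and 10 changed sign. Quantile normalization gave 8 lower glycolytic members and the length correction 7, where the cause was not tested. Over all genes tested, these settings gave 1774 and 1867 lower. After quantile normalization the log2 changes of ALDOA, GAPDH and PGK1 were -0.09, -0.0017 and -0.09, and after the length correction those of PGK1 and PKM were -0.08 and 0.0015.

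With 1 library left out, calls over all genes ranged from 1202 to 2258 higher and from 1005 to 2256 lower, beside 2019 and 1750 with all libraries. The counts without control replicates 1, 2 and 3 were 1332, 1202 and 1231 higher, and those without control replicates 2 and 3 were 1005 and 1113 lower. Lower glycolytic members ranged from 2 to 6, and higher genes of the further lists from 8 to 18. Log2 changes ranged from -0.04 to 0.05 for PFKFB4, from -0.02 to 0.14 for ALDOA, from -0.03 to 0.05 for PGK1 and from -0.26 to 0.0002 for PDK1.

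Whether the replicate numbers pair the libraries is not known. Same-numbered libraries had correlations of their deviations from the group means of -0.214, -0.086 and 0.34. Those of the other pairs ran from -0.371 to 0.371. With 3 libraries per group, these values cannot tell if same-numbered libraries shared a culture or a batch. With the replicate block, 1610 genes were higher and 1405 lower, and 2 glycolytic members were higher and 4 lower. HK2 lost its call (adjusted p = 0.0733) and ENO2 gained one (0.0444). Of the further genes named, SLC2A8 (0.0797), ENO3 (0.0863), UGP2 (0.0879) and ARNT (0.0975) lost theirs. The isoform shares kept their direction without each library and as shares of reads. Low values rest on few reads: ANKRD37 had 129 to 294 per library.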

Other observations

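Further hypoxia targets outside the rule for named genes, chosen after their values were seen, also moved in both directions with RA. Rises were seen in HILPDA, a lipid droplet protein (16.9 ± 0.889 to 29.3 ± 2.45 FPKM, SD, n = 3 libraries per group, limma adjusted p = 0.000587), and the cytokine MIF (289 ± 24.6 to 404 ± 52.8, 0.0157). MIF had adjusted p-values of 0.0555 to 0.0642 without control replicates 2 or 3. Falls were seen in AK4, a mitochondrial adenylate kinase (16.0 ± 0.793 to 8.08 ± 1.32 FPKM, limma adjusted p = 0.00126), MXI1, a repressor that opposes MYC (14.7 ± 0.638 to 8.33 ± 0.966, 0.00116), BHLHE40, a transcriptional repressor (102 ± 3.95 to 77.0 ± 3.26, 0.00306), and the chemokine receptor CXCR4 (15.7 ± 0.128 to 9.37 ± 1.95, 0.00753). Apart from MIF, these calls held in each of the 14 alternatives run.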
